A study of Mus musculus with 6 samples.

Results

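The 10 genes described here belong to the Polycomb and DNA methylation systems. They are Ezh2, Ezh1, Suz12 and Eed of Polycomb repressive complex 2 (PRC2), Bmi1 and Cbx7 of Polycomb repressive complex 1 (PRC1), the histone demethylase gene Kdm6b, the DNA methyltransferase genes Dnmt1 and Dnmt3a, and their partner Uhrf1. They were taken by gene symbol from the 16894 genes listed for fibroadipogenic progenitors (FAPs), and all 10 were present. FAPs are mesenchymal cells of the muscle interstitium that can become fibroblasts or adipocytes. The cells came from limb muscle of 3- to 6-month-old C57BL/6 mice of both sexes, were sorted as CD45-/CD31-/α7-integrin-/SCA-1+, and were grown in culture at low oxygen with bFGF. Senescent FAPs had received 20 μM etoposide, which breaks DNA through topoisomerase, during 48 h and had then spent 5 days in normal medium, while control FAPs are labelled only as non-senescent. Bulk RNA-seq covered 3 libraries per group, and the labels do not say whether replicates are separate mice, so p-values measure the spread between these libraries.

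Polycomb proteins keep developmental genes silent through marks on histones. PRC2 places methyl groups on lysine 27 of histone H3 through EZH2 or its paralog EZH1, which need SUZ12 and EED to work, and PRC1 reads that mark through CBX proteins and adds ubiquitin to histone H2A. KDM6B removes the PRC2 mark. DNA methylation is a separate silencing layer: UHRF1 recognises DNA that is methylated on a single strand after replication and brings DNMT1 to copy the mark, whereas DNMT3A methylates new sites. The best known Polycomb target in senescence is the Cdkn2a locus, which encodes p16 and ARF.

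Reads on genes ranged from 41412179 to 59912520 per library. The deposited unit is CPM (counts scaled to a common library size), here relative to a library size that already includes a scaling factor from edgeR. All 10 FAP marker genes chosen were listed, with Pdgfra at 126 to 254 CPM across the 6 libraries. Ly6a, which encodes SCA-1, had 220 to 456 CPM in control and 538 to 678 CPM in senescent libraries. Its log2 fold change was 0.81 (limma adjusted p = 0.0393). Thy1 was uneven between replicates in both groups. It had 489, 41.3 and 61.6 CPM in control and 615, 70.9 and 73.6 CPM in senescent replicates 1, 2 and 3. The cause was not tested. Cd34 and Dcn rose by 1.60 and 1.79 on the log2 scale, and Col1a1, the only marker of the 10 called lower, fell by 2.29. Lum had at most 0.951 CPM in control FAPs and between 3.14 and 3.51 CPM in senescent FAPs. It would not have passed the filter without its high senescent libraries, so its call is no support for a rise of the markers. The defining markers Ptprc, Adgre1 and Cd3e of leukocytes and Pax7, Myod1 and Myog of muscle precursors were not among the listed genes. The 4 listed leukocyte markers together had 9.78 to 10.3 CPM in the control libraries and 18.0 to 20.3 CPM in senescent libraries, and Lyz2 and Cd68 were higher in senescent FAPs. Itgam was also called higher, but it had at most 0.0670 CPM in control libraries and passed the filter through the senescent libraries alone. Csf1r, at 6.24 to 8.10 CPM across the 6 libraries, did not pass the test. Of the other cell types, Pecam1 of endothelium was higher and Kdr lower, neither above 4.60 CPM. Tek, also of endothelium, had 12.0 to 32.9 CPM across the 6 libraries and did not pass the test. Itga7 of myogenic cells was higher, at 15.7 to 23.6 CPM in senescent libraries. Des, at 2.02 to 10.1 CPM across the 6 libraries, did not pass the test. Their part in the results below was not tested.

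Of the 10 genes, 4 fell in senescent FAPs (Uhrf1, Ezh2, Dnmt1 and Suz12), 2 rose (Ezh1 and Cbx7), and 4 did not pass the test (Eed, Bmi1, Dnmt3a and Kdm6b). These calls came from limma, fitted to log2(CPM + 0.5) for 14776 genes that reached 0.5 CPM in 3 or more libraries, with a Benjamini-Hochberg adjusted p under 0.05 counted as passing. All 10 genes were in the fit. Among all genes tested, 24.3% were called lower and 21.8% higher, 46.1% in either direction. The 3 libraries of each group did not overlap for 6 of the 10 genes, those that passed, and for 57.4% of all genes tested (30.9% lower, 26.5% higher). With the stricter rule of a raw p below 0.01 and a log2 change larger than 1 in size, 3 of the 10 genes were lower (Uhrf1, Ezh2 and Dnmt1) and 0 higher, against 3.90% and 6.93% of all genes. Exons of Ezh2, Suz12, Eed, Cbx7, Dnmt3a and Kdm6b overlap a gene on the opposite strand in the annotation, and as the sources used here do not state whether counting used strand, reads of such partners cannot be told apart. On GRCm38 (GENCODE M21), the PRC2 genes lie at chr6:47530139-47595341 (Ezh2, minus strand), chr11:101191115-101226463 (Ezh1, minus strand), chr11:79993106-80034123 (Suz12, plus strand) and chr7:89954654-89980983 (Eed, minus strand). Bmi1 lies at chr2:18677018-18686629 (plus strand), Cbx7 at chr15:79915807-79971119 (minus strand) and Kdm6b at chr11:69398508-69413675 (minus strand). Dnmt1 lies at chr9:20907209-20959888 (minus strand), Dnmt3a at chr12:3806007-3914443 (plus strand) and Uhrf1 at chr17:56303321-56323486 (plus strand). Values are counted over the whole gene, and transcripts of 1 gene are not separated. The median log2 fold change was −0.15 over the 10 genes and −0.03 over all genes tested.

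**Figure D1:**
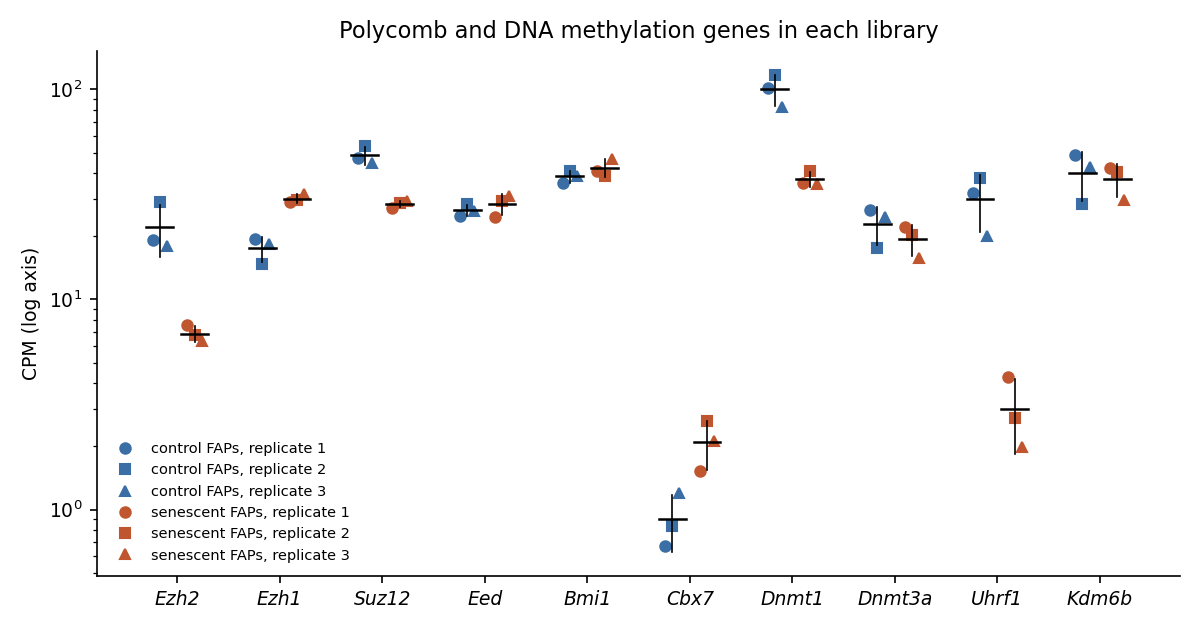
CPM of each gene on a log axis in the 3 control libraries (blue) and the 3 senescent libraries (orange), with a marker shape for each replicate number, horizontal lines for the group means and vertical lines for 1 SD. Uhrf1, Ezh2, Dnmt1 and Suz12 lie lower and Ezh1 and Cbx7 higher in all 3 senescent libraries, and the groups overlap for the other 4 genes.

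Among the PRC2 genes, the catalytic subunit Ezh2 had 19.2, 29.0 and 18.0 CPM in control replicates 1, 2 and 3. Its senescent libraries, replicates in order, had 7.53, 6.74 and 6.32 CPM. The groups did not overlap, and control replicate 2 stood above the other two control libraries. The mean went from 22.1 ± 6.08 to 6.86 ± 0.610 CPM (SD, n = 3 each), which is 31.1% of the control mean. The log2 fold change was −1.59 (standard error 0.19, limma adjusted p = 6.99e-04), which placed Ezh2 at rank 233 from the lowest value among the 14776 genes tested. Without control replicate 2 the log2 fold change was −1.375.

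Ezh1, the paralog of Ezh2 that can take its place in PRC2, moved the other way. It had 19.4, 14.8 and 18.3 CPM in control replicates 1, 2 and 3. The senescent libraries had 29.1, 29.6 and 31.9 CPM, all above the highest control library. The rise was from 17.5 ± 2.42 to 30.2 ± 1.47 CPM (SD, n = 3 each), a log2 fold change of 0.78 (standard error 0.12, limma adjusted p = 0.00185). Control replicate 2, which had the most Ezh2, had the least Ezh1.

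The change in the balance of the paralogs can be read within each library, where the scaling between libraries has no part. The log2 ratio of Ezh1 to Ezh2 was 0.02, −0.95 and 0.03 in control replicates 1, 2 and 3. It was 1.88, 2.06 and 2.25 in the senescent libraries, a difference between group means of 2.36 (p = 0.1 in an exact permutation test, two-sided, which cannot give less with 3 libraries against 3). Every senescent ratio was above every control ratio. To compare levels between genes, CPM was divided by the exon length of each gene in kilobases. On this scale Ezh2 made up 52.4%, 68.6% and 52.2% of the summed Ezh2 and Ezh1 level in control replicates 1, 2 and 3, whereas the senescent libraries, replicates in order, had 22.4%, 20.2% and 18.1%. Ezh2 was thus the more abundant of the pair per length in each control library and Ezh1 in each senescent library. The length covers all annotated exons of a gene and not those of an expressed transcript. In control replicates 1 and 3, where the log2 ratio in CPM was 0.02 and 0.03, the order rests on these lengths. The sum of both genes was 5.65 ± 0.610 CPM per kb in control and 5.09 ± 0.126 CPM per kb in senescent FAPs (SD, n = 3 each), and the groups overlapped, with 5.15 CPM per kb in control replicate 3 against 5.23 in senescent replicate 3 (two-sided exact permutation test, p = 0.2).

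The scaffold subunit gene Suz12 had 47.1, 53.7 and 44.7 CPM in control replicates 1, 2 and 3, and 27.4, 28.8 and 29.3 CPM in the senescent libraries, replicates in order. Every senescent library lay below every control library. The log2 fold change was −0.75 (standard error 0.09, limma adjusted p = 7.50e-04), or 58.7% of the control mean. Eed, whose protein binds the H3K27 methyl mark and stimulates the enzyme, had 25.0, 28.3 and 26.4 CPM in the control libraries and 24.8, 29.4 and 31.1 CPM in the senescent libraries, replicates in order. These ranges overlapped, and the log2 fold change of 0.09 had a 95% interval from −0.16 to 0.34 (limma adjusted p = 0.516). The core genes of PRC2 were thus lower, higher or without a call in the same libraries. Per kilobase, Suz12 went from 9.81 ± 0.942 to 5.76 ± 0.198 CPM per kb (SD, n = 3 each), while Eed was at 6.94 ± 0.440 and 7.43 ± 0.848 CPM per kb. Per kilobase the order of the pair was therefore Suz12 above Eed in each control library and Eed above Suz12 in each senescent library. In CPM, Suz12 was still above Eed in senescent replicate 1 (27.4 against 24.8).

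**Figure D2:**
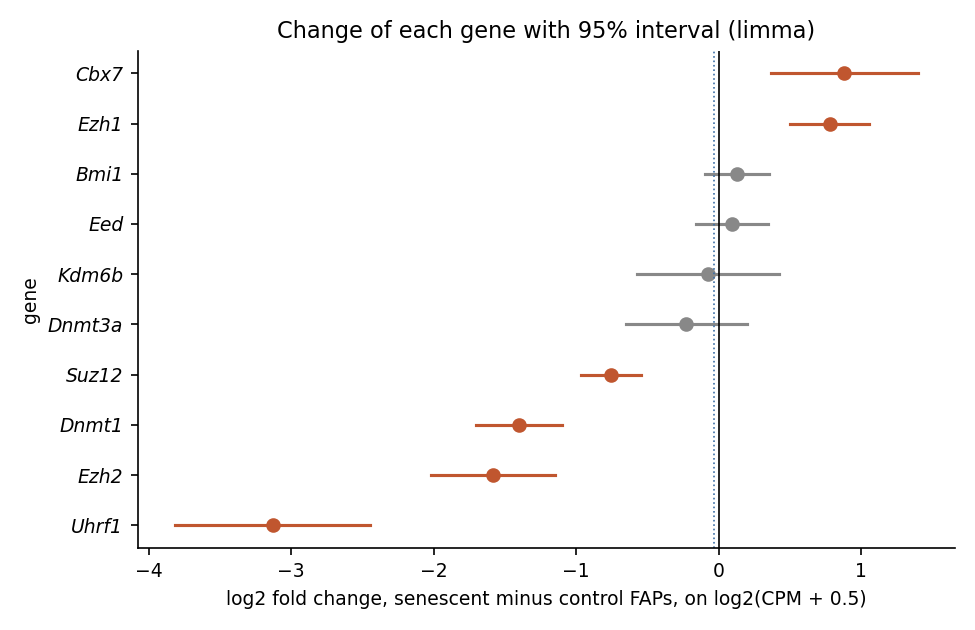
Log2 fold change of each gene in senescent compared to control FAPs on log2(CPM + 0.5), with the 95% interval from limma. Orange marks an adjusted p under 0.05 and grey the other genes, the solid vertical line is 0 and the dotted line the median of all genes tested, −0.03. The intervals of Ezh1 and Ezh2 lie on opposite sides of 0.

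Of the PRC1 genes, Bmi1, a RING-finger subunit needed to keep Cdkn2a silent in dividing cells, had 35.9, 40.9 and 38.8 CPM in control replicates 1, 2 and 3. It had 41.0, 38.8 and 46.8 CPM in the senescent libraries, replicates in order. The groups overlapped, and the log2 fold change of 0.13 had a 95% interval from −0.10 to 0.35 (limma adjusted p = 0.307). With division by library totals alone the value was 0.34 and the adjusted p 0.0244. Per kilobase, Bmi1 held 28.8% ± 1.24 of the summed level of the 6 PCGF genes in control and 30.01% ± 2.23 in senescent FAPs (SD, n = 3 each; two-sided exact permutation test, p = 0.6). Its share came second to that of Pcgf3, with 33.6% and 33.3%.

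Cbx7, one of the chromodomain genes through which PRC1 reads the PRC2 mark, had the lowest group means of the 10 genes, with 30 to 158 reads per library. In senescent replicate 3 Uhrf1 was lower still, at 1.98 CPM. Cbx7 had 0.670, 0.837 and 1.203 CPM in control replicates 1, 2 and 3. The senescent libraries had 1.53, 2.64 and 2.12 CPM, each above the highest control library. The log2 fold change was 0.88 (standard error 0.22, limma adjusted p = 0.0143). Without senescent replicate 2 the log2 fold change was 0.73 and the adjusted p 0.0567, and without senescent replicate 3 they were 0.87 and 0.0502. Per kilobase of exon Cbx7 was at 0.139 ± 0.0420 CPM per kb in control and 0.323 ± 0.0859 CPM per kb in senescent FAPs (SD, n = 3 each), the lowest level of the 10 genes in both groups.

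Kdm6b, which encodes a demethylase of H3K27, had 48.9, 28.4 and 42.9 CPM in control replicates 1, 2 and 3. Its senescent libraries, replicates in order, had 42.3, 40.5 and 29.7 CPM. The libraries of both groups spread over the same range, with control replicate 2 and senescent replicate 3 the lowest. The log2 fold change was −0.07, with a 95% interval from −0.57 to 0.42 (limma adjusted p = 0.797), and its sign turned without control replicate 1 (0.09) or senescent replicate 3 (0.08) and with division by library totals (0.14). Kdm6b held 70.0% ± 9.78 of the summed level per kilobase of Kdm6a and Kdm6b in control and 69.1% ± 4.67 in senescent FAPs (SD, n = 3 each; two-sided exact permutation test, p = 0.8).

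Among the DNA methylation genes, Uhrf1 showed the largest change of the 10. It had 32.2, 37.7 and 20.1 CPM in control replicates 1, 2 and 3. It had 4.27, 2.74 and 1.98 CPM in the senescent libraries, replicates in order, so the highest senescent library was far below the lowest control library. The mean of 2.998 ± 1.17 CPM in senescent FAPs was 9.99% of the 29.99 ± 8.99 CPM in control FAPs (SD, n = 3 each). The log2 fold change was −3.13 (standard error 0.29, limma adjusted p = 3.33e-04), at rank 11 from the lowest value among the 14776 genes tested. Its paralog Uhrf2, which does not stand in for it in maintenance methylation, had 63.0 to 70.7 CPM in the control libraries and 57.6 to 61.4 CPM in senescent libraries, with a log2 fold change of −0.16 (limma adjusted p = 0.127). Uhrf1 accordingly held 47.1% ± 7.52 of the summed level per kilobase of both genes in control FAPs and 9.15% ± 2.98 in senescent FAPs (SD, n = 3 each; two-sided exact permutation test, p = 0.1).

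Dnmt1, the maintenance methyltransferase, was the most abundant of the 10 genes in control FAPs, also per kilobase. It had 101, 117 and 82.5 CPM in control replicates 1, 2 and 3, and 35.9, 40.8 and 35.3 CPM in the senescent libraries, replicates in order. Every control library had more than every senescent library. The log2 fold change was −1.40 (standard error 0.13, limma adjusted p = 3.31e-04), with 37.3% of the control mean left. Dnmt3a, the de novo methyltransferase, had 26.5, 17.6 and 24.6 CPM in control replicates 1, 2 and 3. Its senescent libraries, replicates in order, had 22.1, 20.2 and 15.8 CPM. These values overlapped between groups, and the log2 fold change of −0.23 had a 95% interval from −0.65 to 0.20 (limma adjusted p = 0.340). The log2 ratio of Dnmt3a to Dnmt1 was −1.91, −2.70 and −1.73 in control and −0.68, −0.99 and −1.14 in senescent replicates 1, 2 and 3, a difference of 1.17 (two-sided exact permutation test, p = 0.1). Per kilobase Dnmt1 still held most of the summed level of Dnmt1, Dnmt3a and Dnmt3b, 88.0% ± 3.56 in control and 78.8% ± 2.84 in senescent FAPs (SD, n = 3 each). That sum went from 15.4 ± 2.09 to 6.43 ± 0.515 CPM per kb (two-sided exact permutation test, p = 0.1), whereas the sum of Ezh1 and Ezh2 overlapped between groups. Within the maintenance pair, the log2 ratio of Uhrf1 to Dnmt1 was lower by 1.73 in senescent FAPs, from −2.01 to −1.62 in control and from −3.85 to −2.93 in senescent libraries (two-sided exact permutation test, p = 0.1).

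**Figure D3:**
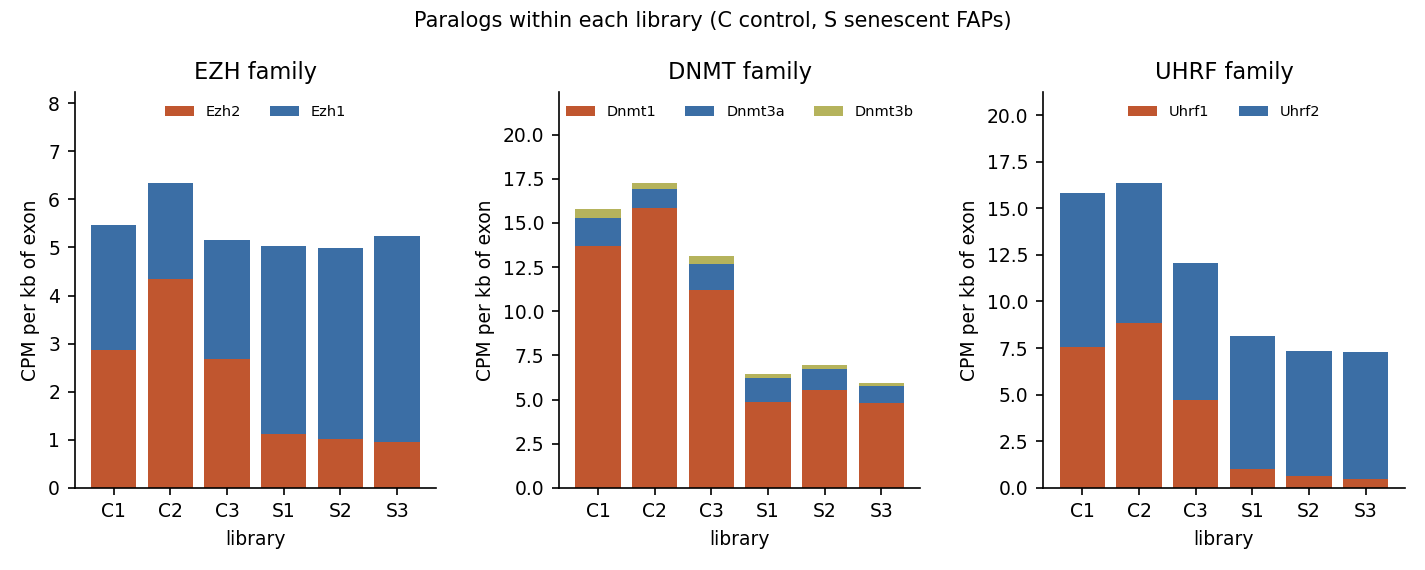
Stacked CPM per kilobase of exon of the EZH, DNMT and UHRF genes in control libraries C1 to C3 and senescent libraries S1 to S3. The EZH bars overlap in height between groups, with Ezh2 at 52.2% to 68.6% in control and 18.1% to 22.4% in senescent libraries, while the DNMT and UHRF bars are lower in senescent libraries, with less Dnmt1 and less Uhrf1.

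As background, Ezh2, Dnmt1 and Uhrf1 are known E2F target genes with most transcript in dividing cells, and genes of proliferating cells were therefore read beside them. Of 30 proliferation genes, 28 fell and 0 rose, beside 24.3% and 21.8% of all genes tested. The median log2 fold change of the 30 genes was −2.33. E2f1, which encodes an E2F factor, had a value of 0.43 (limma adjusted p = 0.0765, and 0.0179 with the replicate block, where 29 genes fell and E2f1 rose). Ccna2, the S-phase and mitotic cyclin, fell by 3.84, the proliferation marker Mki67 by 3.55 and the mitotic kinase gene Plk1 by 3.51. Their summed level was 1450, 2494 and 1330 CPM in control replicates 1, 2 and 3, and 529, 515 and 526 CPM in the senescent libraries, replicates in order. The control libraries ranked in the same order, replicate 2 above 1 above 3, for this sum and for each of Ezh2, Suz12, Dnmt1 and Uhrf1, and for none of the other 6 genes. In a bulk sample fewer cycling cells and less RNA per cell cannot be told apart, and the part of cell cycling in the 4 falls was not tested. The falls of Ezh2 and Dnmt1 were smaller than the median of the proliferation genes and that of Uhrf1 was larger. With the rule of the smallest root mean square difference in centred log2 values over the 6 libraries, the genes most like Ezh2 were Cdc7 (0.06), Atad5 (0.08) and Cit (0.09), with log2 fold changes of −1.53, −1.45 and −1.48. Those most like Kdm6b were Tnfrsf25 (0.06), 2810410L24Rik (0.07) and Gtpbp2 (0.08), none of which passed the test. Among the 10 genes the nearest pairs were Eed with Bmi1 (0.10), Dnmt3a with Kdm6b (0.10) and Ezh2 with Dnmt1 (0.17).

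**Figure D4:**
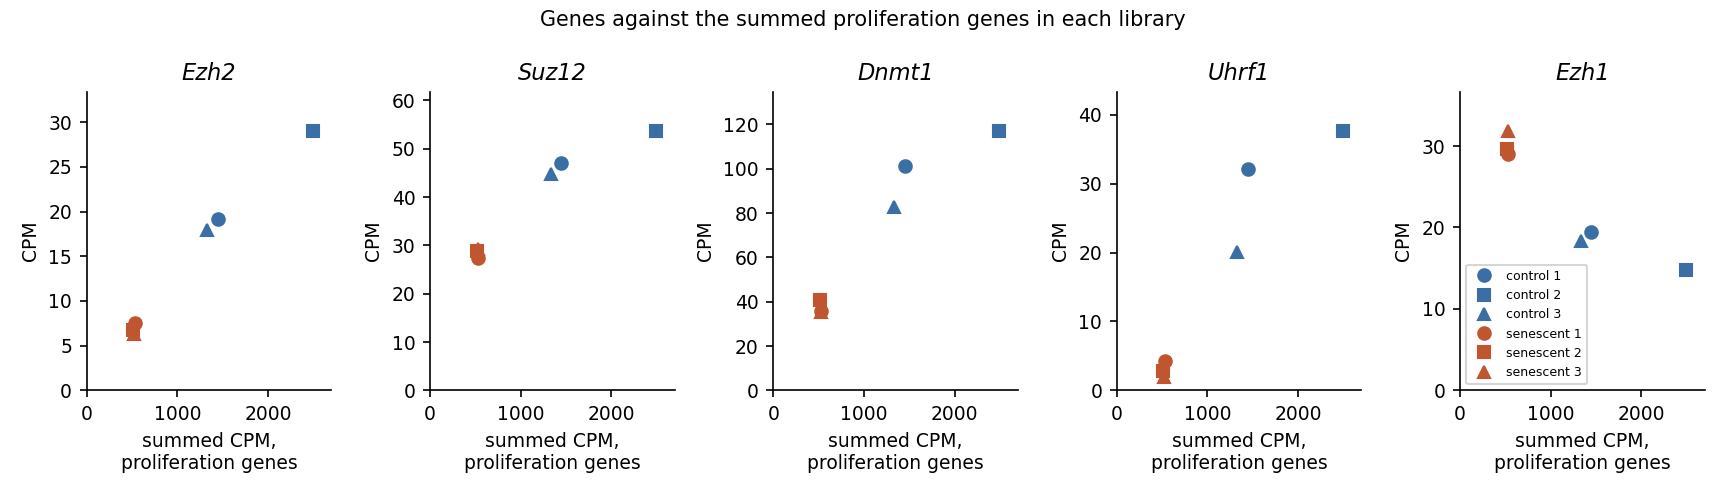
CPM of Ezh2, Suz12, Dnmt1, Uhrf1 and Ezh1 against the summed CPM of 30 proliferation genes, one point per library (control blue, senescent orange, shapes for replicate numbers). The senescent libraries share sums of 515 to 529 CPM, and control replicate 2, at 2494 CPM, has the most of the first 4 genes and the least Ezh1.

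Because these 4 genes fell together, their promoter windows were searched for the E2F-type octamers TTTCCCGC, TTTGGCGC, TTTCGCGC and TTTGCCGC on both strands, a search chosen after their changes were known. The windows are those of RefSeq on GRCm38.p6, 250 bases before to 50 after each start site, and 9 of the 10 genes had at least 1 window. Kdm6b was not in the promoter table. An octamer was present in a window of each of the 4 genes that fell and in no window of Ezh1, Eed, Bmi1, Cbx7 or Dnmt3a. Of all 32851 windows 2.26% held one, and of the 10131 tested genes with a window 4.51% did. Dnmt1 had 3 windows and Uhrf1 2, which gives more letters to match. A further 3 strings of letters were searched on both strands. CCAAT was also in a window of each of the 4 genes that fell, and in those of Eed and Cbx7. It was in 37.4% of all windows and in a window of 43.0% of the tested genes. TTTGAA was in a window of Suz12, Dnmt1, Eed and Cbx7 (17.9% of all windows, 14.1% of the tested genes). GGGCGG was in a window of Suz12, Dnmt1, Uhrf1, Bmi1, Cbx7 and Dnmt3a (35.7% of all windows, 68.7% of the tested genes). The octamer sites are shown as the rarest of these matches, in 30 bases each, read 5′ to 3′ on the strand of the gene with the octamer or its reverse complement in capitals. They lie at chr6:47595009-47595038 (minus strand, in a UTR exon of Ezh2, octamer starting 4 bases into the transcript), chr11:79992876-79992905 (plus strand, intergenic, 219 bases before the start of Suz12), chr9:20952824-20952853 and chr9:20952574-20952603 (minus strand, in UTR exons of Dnmt1, 219 bases before and 34 bases after the third start site), and chr17:56304117-56304146 (plus strand, in an intron of Uhrf1, 185 bases before the downstream start site).
Ezh2: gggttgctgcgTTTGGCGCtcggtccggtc
Suz12: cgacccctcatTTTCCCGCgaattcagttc
Dnmt1 upstream site: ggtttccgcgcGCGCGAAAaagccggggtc
Dnmt1 downstream site: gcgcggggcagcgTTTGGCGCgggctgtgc
Uhrf1: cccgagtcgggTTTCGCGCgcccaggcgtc

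For the PRC2 genes Suz12 and Ezh1, which changed in opposite directions and whose upstream sequence overlaps no annotated transcript, the 240 bases before the start site are given with the octamer in capitals. They are chr11:79992866-79993105 on the plus strand for Suz12, with 36 CpG dinucleotides, and chr11:101226464-101226703 on the minus strand for Ezh1, with 14 and no octamer.
Suz12: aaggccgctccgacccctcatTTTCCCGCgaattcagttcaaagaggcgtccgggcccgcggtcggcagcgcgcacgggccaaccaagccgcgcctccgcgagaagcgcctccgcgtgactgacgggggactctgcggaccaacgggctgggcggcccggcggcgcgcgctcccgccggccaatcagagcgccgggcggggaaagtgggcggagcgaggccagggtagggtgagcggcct
Ezh1: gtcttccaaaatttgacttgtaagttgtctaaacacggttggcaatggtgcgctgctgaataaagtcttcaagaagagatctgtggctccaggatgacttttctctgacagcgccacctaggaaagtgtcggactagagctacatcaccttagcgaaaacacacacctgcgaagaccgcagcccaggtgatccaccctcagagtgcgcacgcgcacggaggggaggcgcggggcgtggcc
A match is a string of letters and not a bound site. Over the tested genes with a window, 37.6% of the 457 with an octamer and 23.8% of the 9674 without one were called lower. Called higher were 13.6% of the 457 and 23.1% of the 9674. The 457 include the genes whose octamer sites are printed above. The base composition of the windows and their number per gene were not taken into account. Whether the octamers have a part in the falls was not tested.

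The 10 genes and others of the same systems were read from 6 lists of PRC2 subunits, PRC1 subunits, enzymes that remove Polycomb marks, DNA methylation writers, DNA demethylation genes and methyl-CpG readers, 65 genes in all and all tested. Of them, 23 fell (35.4%, against 24.3% of all genes tested) and 9 rose (13.8%, against 21.8%), with a median log2 fold change of −0.17. Without the 10 genes, which are all in these lists, 19 of 55 fell (34.5%) and 7 rose (12.7%). The split depended on the scaling. With division by library totals alone, which moved the median of all genes from −0.03 to 0.17, 15 were called lower and 19 higher. Without senescent replicate 2 or without senescent replicate 3, 5 were called higher.

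Of the 12 PRC2 genes, 5 fell and 2 rose, beside 24.3% and 21.8% of all genes tested. With division by library totals 3 fell and 3 rose, and 1 rose without control replicate 2, without control replicate 3 or without any one senescent replicate. Besides Ezh2 and Suz12, the histone chaperone genes Rbbp7 and Rbbp4 fell by 0.60 and 0.38 on the log2 scale and the accessory subunit gene Jarid2 by 0.45, while the accessory subunit gene Phf1 rose by 0.48 beside Ezh1. Of the 22 PRC1 genes, 6 fell and 5 rose, with a median of 0.03, which is near the shares of all genes tested. With division by library totals 2 fell and 9 rose, while over all genes 1933 fell and 5056 rose. For PRC1, 2 fell and 2 rose without senescent replicate 3, 3 and 2 without senescent replicate 2, and 3 and 4 without control replicate 1 or control replicate 3. The chromodomain gene Cbx2 had 7.63, 4.75 and 5.35 CPM in the control libraries and 4.21, 3.55 and 2.54 CPM in the senescent libraries, replicates in order, a fall of 0.70 (limma adjusted p = 0.0368). Phc1, a polyhomeotic subunit, fell by 0.67 and Cbx6 rose by 0.58. Of the ring-finger ligase genes, Rnf2 rose by 0.23 (limma adjusted p = 0.0445), and Ring1 had a value of 0.08 with a 95% interval from −0.33 to 0.48 that also holds the value of Rnf2, so that no difference between them was shown. Of the 8 genes for removal of Polycomb marks, 3 fell and 0 rose, beside 24.3% and 21.8% of all genes tested. Those that fell were Bap1 (−0.42), which encodes a deubiquitinase of histone H2A, its cofactor gene Asxl1 (−0.50) and Usp16 (−0.34), another H2A deubiquitinase gene. The other genes of H2A deubiquitination, Mysm1 (0.01), Asxl2 (−0.13) and Asxl3 (−0.22), and the H3K27 demethylase genes Kdm6a (0.02) and Kdm6b (−0.07) did not pass the test. With division by library totals 1 of the 8 was called lower.

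Of the 9 writers and maintenance genes of DNA methylation, 5 fell and 0 rose, with a median log2 fold change of −0.78. Among all genes tested, 24.3% were called lower and 21.8% higher. The chromatin remodeler gene Hells, needed for methylation of repeats, had 15.3, 24.1 and 12.6 CPM in the control libraries and 3.34, 5.07 and 4.01 CPM in the senescent libraries, replicates in order, a fall of 1.91. Its partner gene Cdca7 fell by 2.15, from between 7.27 and 8.61 CPM to between 1.205 and 1.77 CPM. Dnmt3b, the other de novo methyltransferase gene, fell by 0.78 from a low level of 1.62 to 2.50 CPM. Of the 6 genes of active demethylation, 3 fell and 0 rose, beside 24.3% and 21.8% of all genes tested. There were 5 lower without control replicate 2 and 2 lower without control replicate 1, control replicate 3 or senescent replicate 3. Tdg, which encodes the glycosylase that excises oxidised methylcytosine, had 33.3, 29.0 and 31.6 CPM in the control libraries and 11.4, 11.7 and 11.1 CPM in the senescent libraries, replicates in order, a fall of 1.41 (limma adjusted p = 1.31e-04). The dioxygenase genes Tet1 and Tet3 fell by 1.31 and 1.06, and Tet2 had a value of −0.17 that did not pass the test. Genes for both copying and removing DNA methylation were thus lower in the same libraries. Of the 8 methyl-CpG readers, 2 rose and 1 fell, beside 21.8% and 24.3% of all genes tested. With division by library totals, which moved the median of all genes to 0.17, 6 rose and 1 fell. Zbtb4 rose by 1.07, with every senescent library above 84 CPM and every control library below 46 CPM, Zbtb33, which encodes Kaiso, rose by 0.37, and Mbd3 fell by 0.49.

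**Figure D5:**
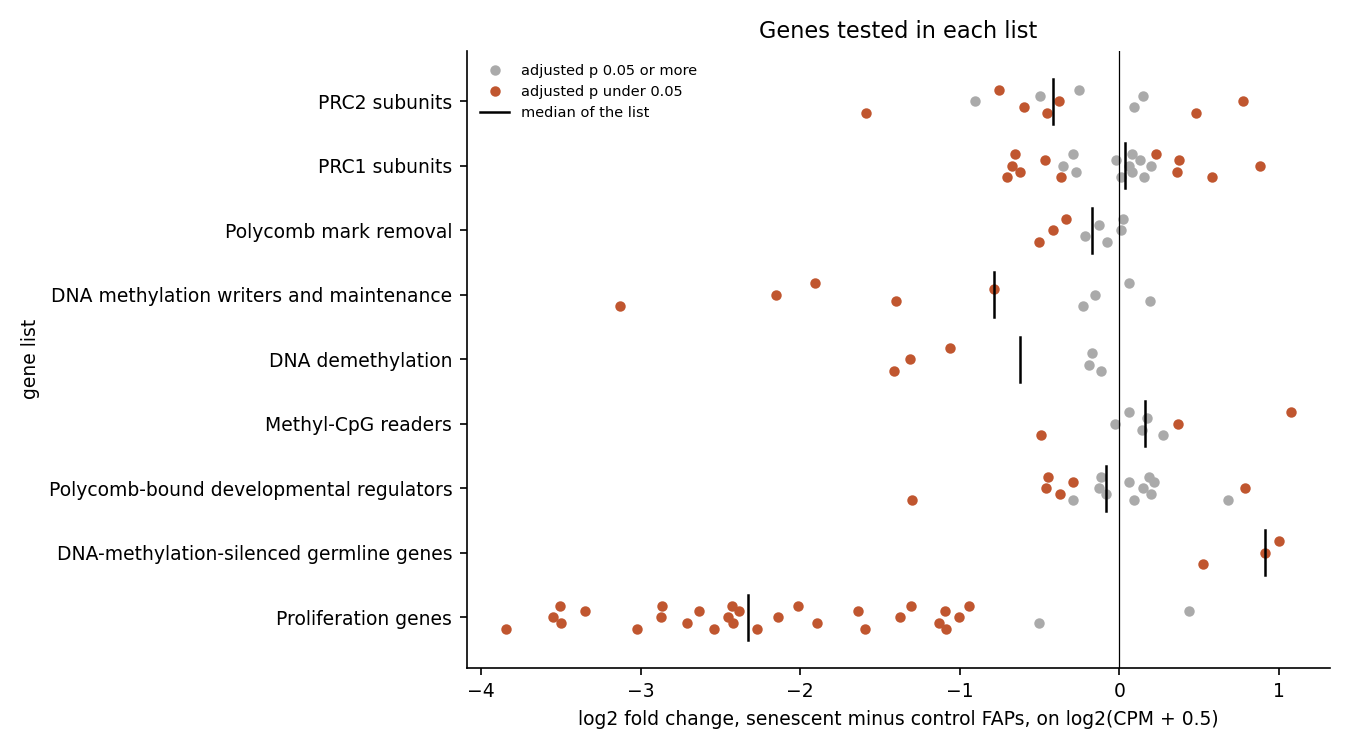
Log2 fold change in senescent compared to control FAPs of each tested gene in 9 lists, with orange for an adjusted p under 0.05, grey for the others and a black line at the median of the list. The writers of DNA methylation have a median of −0.78, the PRC1 subunits of 0.03 and the proliferation genes of −2.33.

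Genes that these systems are known to silence were read as well. At the INK4-ARF locus, Cdkn2a had 71.2, 56.5 and 129 CPM in the control libraries and 63.2, 102 and 104 CPM in the senescent libraries, replicates in order, a log2 fold change of 0.13 with a 95% interval from −0.60 to 0.85 (limma adjusted p = 0.765). The p16 and ARF transcripts are thus read as 1 value. By qPCR, the study reported higher p16 in etoposide-treated than in control FAPs, and the Cdkn2a value here does not measure p16 alone. Cdkn2b had 49.99, 69.7 and 85.7 CPM in the control libraries and 64.4, 94.6 and 92.5 CPM in the senescent libraries, replicates in order, a log2 fold change of 0.30 (limma adjusted p = 0.282, and 0.0236 with the replicate block). Each senescent library was above the control library of the same number for Cdkn2b. Of 41 developmental regulators that are known as Polycomb targets, 20 were listed and 17 tested. Of these 17, 5 fell and 1, Msx2, rose, beside 24.3% and 21.8% of all genes tested. These counts rested on single libraries: 0 fell and 0 rose without senescent replicate 2, 1 and 0 without senescent replicate 3, and 3 and 1 without senescent replicate 1. Leaving out control replicates 1, 2 and 3 in turn gave 2, 3 and 2 that fell and 0, 2 and 1 that rose. The rise of Msx2, whose groups overlapped, was also not called with edgeR, with quantile normalization or without the variance trend. With division by library totals 1 fell and 2 rose. Dlx2 fell by 0.46 and Twist2 by 0.44. Gbx2, counted among the 5, had 2.12, 0.951 and 0.610 CPM in the control libraries and at most 0.338 CPM in the senescent ones, and it passed the filter through the control libraries alone, so its call is no support for a fall of the list. Of 21 germline genes that are silenced by DNA methylation in somatic cells, 6 were listed and 3 tested. All 3 were called higher, beside 21.8% of all genes tested. For all 3 each senescent library was above each control library, as for 26.5% of all genes tested. With 3 genes tested, no trait of the list can be read from this. Stag3, a meiotic cohesin gene, had 2.05, 1.18 and 1.45 CPM in the control libraries and 3.59, 3.25 and 3.85 CPM in the senescent libraries, replicates in order (log2 fold change 1.00, limma adjusted p = 0.00450). Piwil2, an Argonaute gene of the germline, and Brdt, a testis bromodomain gene, rose by 0.91 and 0.53, and neither exceeded 2.23 CPM. Only 2 of the 3 were called with edgeR, with quantile normalization or without any one library other than control replicate 1. The other 15 germline genes, among them Dazl, Sycp3 and Mael, were not in the table, so that their levels could not be read.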

How the data were processed

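Libraries of total RNA were made with a stranded mRNA kit and sequenced for 3 control and 3 senescent FAP samples. The authors deposited CPM values, a signal per gene relative to the effective library size from edgeR 3.10 in R 3.6.0, on mm10, per the labels. Aligner, counting tool and annotation are not given in the sources used here. Divided by the smallest step of its library, 0.0167 to 0.0225 CPM, each value gave a whole number of reads (tolerance 0.01 reads, 100% of values), so read totals could be recovered. The columns did not sum alike, as the scaling factors were 0.917 to 0.940 in control and 1.07 to 1.09 in senescent libraries, and the values were therefore treated as scaled signal and not as plain CPM. A row without a gene name (0.00409% to 0.00699% of reads) was left out.

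The main test was limma 3.58.1 in R 4.3.3 on log2(CPM + 0.5) with a variance trend, 2-sided, with Benjamini-Hochberg adjustment over all 14776 genes tested. It was tested on simulated data first. Fold changes are on the log2(CPM + 0.5) scale, which understates those of low genes such as Cbx7. Single ratios and shares were compared with an exact permutation test. Alternatives were count tests on those reads with DESeq2 1.42.0 and with edgeR 4.0.16, other pseudocounts, filters and scalings, a replicate block, and each library left out. Deviations from the group mean correlated between libraries of the same replicate number at 0.537, 0.308 and 0.207. Between control and senescent libraries of different replicate numbers, these correlations ran from −0.357 to 0.153, the latter for control replicate 2 with senescent replicate 3. The numbers, taken from the sample titles, were used as pairs only in the replicate block. The main test and the permutation tests did not use this pairing. Exon lengths came from GENCODE M21 and promoter windows from RefSeq, both on GRCm38.

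The 10 genes and all lists were chosen with earlier results of these data known. From each list the text names the 3 genes with the largest change among those with an adjusted p under 0.05 and no overlap between groups, all genes of the INK4-ARF locus, and the 3 genes most like Ezh2 and Kdm6b. Rbbp4, Rbbp7, Jarid2, Phf1, Cbx6, Rnf2, Ring1, Pcgf3, Kdm6a, Uhrf2, Dnmt3b, Tet2, Mysm1, Asxl2, Asxl3, E2f1, Msx2, Thy1, Cd34, Csf1r, Tek and Des were named after their values were seen. Some genes of the lists are not reported here by name.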

Additional observations from a re-analysis of the deposited data

How the results depend on the processing

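Ezh2, Suz12, Dnmt1 and Uhrf1 were called lower and Ezh1 higher under all 17 alternatives, and 3 of the 10 genes stayed past the stricter fold rule in the lower direction in all 17. The number called higher, 2, was 3 with library totals only, where Bmi1 also passed. It was 1 with the filter at 2 CPM, which leaves Cbx7 untested, and ranged from 1 to 2 with a library left out. The number past the fold rule in the higher direction, 0, was 1 with DESeq2, with edgeR, with library totals only and with a pseudocount of 0.1, and ranged from 0 to 1 with a library left out. With library totals only, the 65 pathway genes gave 19 higher and 15 lower against 9 and 23, all genes gave 5056 higher and 1933 lower against 3218 and 3592, and Kdm6b turned to 0.1355. With a library left out, the pathway genes gave 5 to 8 higher and 17 to 25 lower, Kdm6b ranged from −0.3008 to 0.08504 (0.08333 without senescent replicate 3), and all genes gave 2130 higher without senescent replicate 2. The cause was not tested. On recovered reads, edgeR called 3075 genes higher and 3556 lower and DESeq2 3560 and 3440. With the replicate block, 2 of the 10 genes were called higher and 4 lower, and 9 and 23 of the pathway genes. In a balanced design the block leaves each log2 fold change as it is (−0.07456 for Kdm6b) and moves only its p. Among the genes of the lists, those that passed with the block and not without it included Cdkn2b, E2f1 and Thy1 as higher and Rrm2 as lower. Cbx7, with 30 to 158 reads per library, is the gene that depth limits most.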
